A study of Saccharomyces cerevisiae with 30 samples.

Results

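A set of 141 rows out of 6377 was described in budding yeast, all of which moved one way in one evolved tetraploid line and the opposite way in another. A row was a member when its mean log2 ratio of evolved over ancestral cells had opposite signs in line 1 and line 3 and was at least 0.5 in size in both. Rows listed with a mitochondrial identifier, rows of at least 1 in size in 2 or more lines, and rows of at least 1 in size in ancestral 4 over diploid were left out. Of 189 rows that were opposite at this size, 39 were left out for their size in several lines and 11 for their size against the diploid, 2 of them for both. By the listed identifiers, 0 were mitochondrial. These identifiers did not belong to the values beside them, as described below, so this count does not show that mitochondrial transcripts are absent. Among the 141 members, 95 were higher in line 3 and lower in line 1, and 46 were lower in line 3 and higher in line 1. The members were thus chosen by their values in lines 1 and 3, which are given as a description without a test. Only 3 rows reached 0.5 in size with the same sign in both lines.

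The cells were a/a/α/α tetraploids of the W303 background that lack SPO11, a gene needed for meiotic recombination, and the deletion was carried by evolved and ancestral tetraploids alike. In each of 8 independent lines, the fittest of several colonies taken after 1000 generations of growth in rich medium was compared with the ancestor of that line, so every evolved line is represented by a single clone. For line 4, the evolved and the ancestral tetraploid (evolved 4 and ancestral 4) were each also compared with a diploid. The paper describes its diploids as isogenic and derived from the same haploid strains, in which SPO11 was deleted first. RNA came from cultures in log phase in rich medium at 36°C, whereas the lines had evolved at a lower temperature. Each of the 10 comparisons was hybridised on 3 arrays, which were technical triplicates. A test within a line therefore covers technical error only, and the line is the replicate for evolved tetraploids as a class. All values below are log2 ratios of the first-named over the second-named cells. A positive value means more RNA in the evolved cells (lines 1 to 8) or in the tetraploid (diploid comparisons), relative to all RNA on the array, and less RNA per cell cannot be told apart from fewer cells of a kind in a culture.

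The arrays held 6092 to 6360 values each, with medians between −0.03 and 0.04. The identifiers deposited beside the values did not belong to them. Over the 30 arrays, 117 complete rows listed as cytosolic ribosomal proteins correlated with each other at −0.0018 on average. When the order of the identifiers was restored, 35 complete rows placed as ribosomal proteins correlated at 0.67, and rows displaced by 1 position from them at 0.035 and 0.015. On the 21 arrays outside line 4 and the diploid comparisons, which were not used to restore the order, the rows placed as ribosomal proteins correlated at 0.33, against 0.034 and 0.055 for rows displaced by 1 position, and those placed as ribosome biogenesis factors at 0.50, against 0.035 and 0.0067. A gene name could be given to 91 of the 141 members, 64 of those higher in line 3 and 27 of those lower in line 3. The other 50 are given by their row number in the deposited table. Counts, medians and tests over rows do not depend on the names.

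The background to the named genes is as follows. The yeast cell wall is a mesh of glucan, mannoproteins and chitin, and its genes respond to growth rate, heat and damage to the wall through the cell integrity pathway. Ribosome assembly takes place mainly in the nucleolus, where large complexes process the ribosomal RNA precursor, and its genes rise and fall together with growth. Uptake of amino acids, peptides and ammonium is carried by permeases whose genes respond to the nitrogen supply.

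Lines 1 and 3 mirrored each other far beyond the members. Over 6250 rows with a mean in both, the Pearson correlation was −0.71, the lowest of all pairs of lines, and single arrays of the 2 lines correlated between −0.72 and −0.36. Arrays correlated between 0.49 and 0.73 within line 1 and between 0.74 and 0.85 within line 3. The labels give the same dye for the evolved cells and the same other dye for the ancestral cells on every array, so the direction was kept as labelled. With the sign of line 1 turned, 1 row would meet the rule in place of 141. Whether the arrays of line 1 run as labelled was not tested. The members had median ratios of −0.67 in line 1 and 0.67 in line 3 when each was turned to its direction in line 3.

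**Figure D1:**
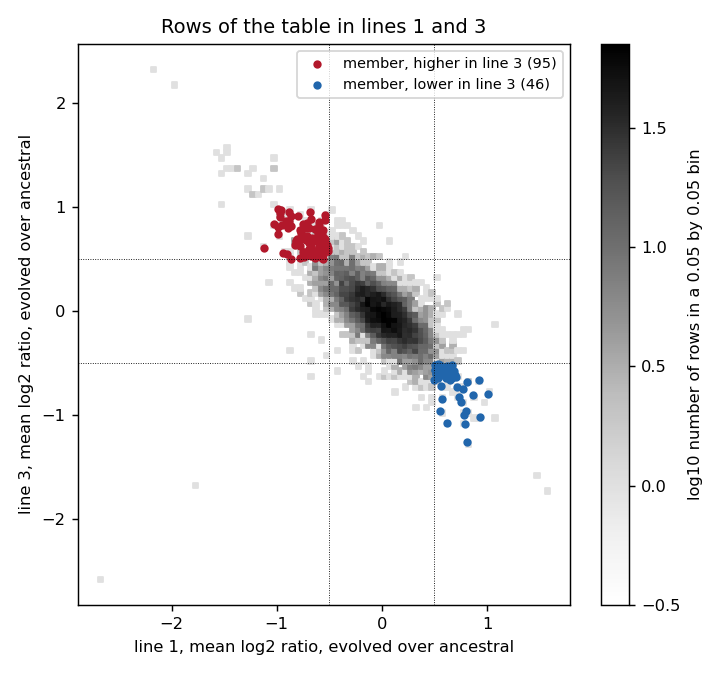
Mean log2 ratio in line 1 (x axis) and line 3 (y axis) of all rows (grey bins, darker for more rows) and of the 141 members (red: 95 higher in line 3; blue: 46 lower in line 3), with the limits at 0.5 in size as dotted lines. The cloud of all rows slopes downward (r = −0.71), and the members lie at its upper left and lower right ends.

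All 141 members had the line 3 sign on all 3 arrays of line 3, and 136 of 136 with 3 values had the opposite sign on all 3 arrays of line 1. The rule chose members by the means of these same arrays. Like signs and a lack of overlap between the lines are therefore largely set by the rule. The members farthest from 0 in both lines included ENT3, an epsin-like adaptor of vesicle transport, CWP1, a mannoprotein of the cell wall, and PIN2, a prion-inducing protein. ENT3 had −1.34, −0.67 and −0.90 on the arrays of line 1 and 0.64, 1.18 and 0.89 on those of line 3. For CWP1 they were −0.77, −1.04 and −0.84 in line 1 and 0.91, 1.07 and 0.91 in line 3. PIN2 stood at −1.34, −0.73 and −0.67 in line 1 and 0.88, 0.80 and 0.94 in line 3. PIN2 shares sequence with the overlapping reading frame YOR105W, itself a member at −0.77 in line 1 and 0.75 in line 3, so their rows cannot be told apart with certainty. In these genes every array of line 1 lay below every array of line 3. By the smaller of the 2 sizes, by which members were ranked, rows 1537, 2978 and 4802, which have no name, came before these genes, at −0.99, −0.96 and −0.97 in line 1 and 0.98, 0.97 and 0.95 in line 3.

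In the other direction the named genes farthest from 0 in both lines were MTC7, SFG1, a transcription factor of filamentous growth, and HXT13, of the hexose transporter family. MTC7 had 0.85, 1.13 and 0.47 in line 1 and −0.91, −1.02 and −1.84 in line 3. SFG1 had 0.63, 0.97 and 0.80 in line 1 and −1.01, −0.95 and −0.93 in line 3, and HXT13 had 1.20, 0.69 and 0.50 in line 1 and −1.20, −1.12 and −0.91 in line 3. Rows 1499, 3351 and 2620 stood at 0.94, 0.86 and 1.01 in line 1 and at −1.01, −0.80 and −0.80 in line 3. Again no array of line 1 overlapped an array of line 3 in the named genes, which the rule largely sets.

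The limit at 0.5 cut through a continuous range. Just inside it lay STF1, a stabilising factor of the ATP synthase inhibitor, at −0.866 in line 1 and 0.501 in line 3, and row 39 at −0.559 and 0.501, and in the other direction DUS1, a tRNA dihydrouridine synthase, at 0.5002 and −0.664, and row 1036 at 0.504 and −0.518. Just outside lay SMP1 at −0.638 and 0.496, row 1655 at −0.496 and 0.542, row 3377 at 0.537 and −0.496, and PNO1, a ribosome assembly factor, at 0.495 and −0.581.

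The other 6 lines and the diploid comparisons did not set the direction of the members. The rule did limit their size over the lines and in ancestral 4 over diploid, but it did not use evolved 4 over diploid. A call required a limma p under 0.05 after Benjamini-Hochberg adjustment over every row tested in that comparison, with no minimum fold. Counts of members or rows that were higher or lower in these comparisons are counts of calls. The methods' t-test within each line, with the same adjustment, called 78 members in line 4 and 29 in line 2, and 0 in lines 5, 6, 7 and 8. Calls over all rows were not counted with this test. Neither an excess of members nor a lack of calls particular to them can therefore be judged from its counts. In line 4 the members followed line 3. Over all rows with a mean in both lines, line 4 correlated at 0.37 with line 3 and at −0.36 with line 1. A lean to line 3 was therefore not particular to the members. Of 93 members higher in line 3 that were tested, 63 were higher in evolved 4 and 6 were lower, whereas of all rows 35.6% were higher and 31.1% lower. Of 43 members lower in line 3, 31 were lower in evolved 4 and 3 were higher. In all 103 of 136 members were called, against 66.7% of all rows. Medians were 0.48 and −0.59 for the 2 directions, against 0.03 for all rows. Turned to the direction of line 3, the median of the 136 members was 0.50 (SD of the 3 array medians 0.04). Quantile normalization over the 30 arrays lowered this median to 0.32. Measured through the diploid comparisons instead, as evolved 4 over diploid minus ancestral 4 over diploid, the median of the same 136 members was 0.30.

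The highest called member of line 4 was YCL041C, an identifier with no gene in the annotation used. It had 1.42, 1.35 and 1.20 on the arrays of line 4, against −0.83, −1.21 and −0.92 in line 8, its lowest line (limma adjusted p = 6.63e-12 and 6.07e-08). The lowest was row 5623 at −1.67, −1.65 and −1.61 (adjusted p = 1.01e-14). This row was lower in 5 of the 6 lines and stood at −0.09 in line 8 (adjusted p = 0.45), the line where it was not called.

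Lines 6 and 8 also leaned toward line 3. Over all rows, line 6 correlated at 0.28 with line 3 and at −0.19 with line 1, and line 8 at 0.09 and 0.05. In line 6, 79 of 141 members were called, against 40.0% of all rows. There 43 of the 95 members higher in line 3 were higher and 10 lower, against 19.2% and 20.8% of all rows, and 21 of the 46 members lower in line 3 were lower and 5 higher. This count was 51 without replicate 2 in all groups and 48 with each group fitted alone. In line 8, 53 members were called, against 22.3% of all rows. Among the members higher in line 3, 33 were higher and 6 lower in line 8, against 11.2% and 11.1% of all rows, while the members lower in line 3 split into 7 higher and 7 lower. The count in line 8 was 26 without replicate 2 and 34 without replicate 3. BNA5, kynureninase of NAD synthesis, was the highest called member of line 6 at 1.14, 1.19 and 1.37 (adjusted p = 2.79e-12), and row 5720 the lowest at −0.80, −0.89 and −0.92 (adjusted p = 2.17e-08). The highest of line 8 was CRR1, a glycosidase of the spore wall, at 0.75, 0.91 and 0.87 (adjusted p = 4.80e-08). Both BNA5 and CRR1 were lower in line 3 and higher in line 1, so in lines 6 and 8 they went with line 1.

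Lines 2 and 5 held the direction of line 3 mainly in members lower there. Over all rows, line 2 correlated at 0.24 with line 3 and at −0.21 with line 1, and line 5 at 0.26 and −0.19. In line 2, 75 of 141 members were called, against 47.8% of all rows. Of the 46 members lower in line 3, 25 were lower in line 2 and 6 higher, against 23.9% of all rows lower and 1524 of 6360 (24%) higher. Of the 95 members higher in line 3, 20 were higher and 24 lower, close to these shares. In line 5, 69 members were called, against 40.6% of all rows. The members lower in line 3 were lower in 23 and higher in 5, against 21.6% and 19.0% of all rows, and those higher in line 3 were higher in 24 and lower in 17. PBI2, an inhibitor of vacuolar proteinase B, was the highest called member of line 2 at 1.09, 0.90 and 1.25 (adjusted p = 3.37e-09), and YHL041W the lowest at −1.34, −0.84 and −1.21 (adjusted p = 1.49e-06). YHL041W had values on only 2 arrays of line 1, −0.24 and −1.18. CHA1, a serine and threonine deaminase, was the lowest called member of line 5 at −0.93, −0.92 and −0.87 (adjusted p = 6.34e-08).

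Line 7 went the other way for the larger group. Over all rows, line 7 correlated at 0.01 with line 3 and at −0.06 with line 1. In line 7, 71 of 141 members were called, against 29.7% of all rows. Of the 95 members higher in line 3, 42 were lower in evolved 7, which is the direction of line 1, and 9 were higher, against 15.1% and 14.6% of all rows. Of the 46 members lower in line 3, 15 were lower and 5 higher. Medians in line 7 were −0.22 and −0.15 for the 2 directions, against −0.01 for all rows, so members of both directions lay mostly below the ancestor. Without replicate 2, 45 members were called in line 7. ADH5, an alcohol dehydrogenase encoded on chromosome II, was the highest called member of line 7 at 1.32, 1.66 and 1.19 and of line 5 at 0.56, 0.86 and 1.09 (adjusted p = 8.45e-11 and 1.74e-07). The lowest member in line 7 was row 5157 at −0.81, −0.93 and −0.79 (adjusted p = 3.97e-07).

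**Figure D2:**
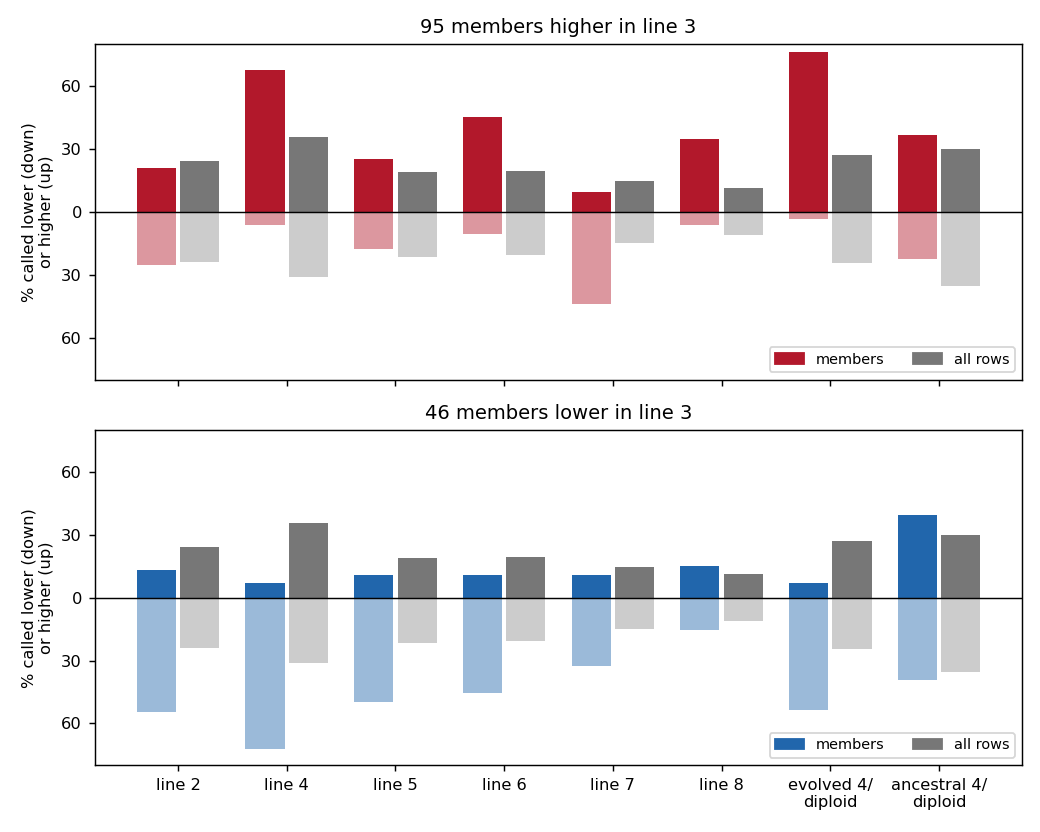
Percent of members tested (coloured) and of all rows tested (grey) that limma called higher (bars up) or lower (bars down, lighter) in each comparison, for the 95 members higher in line 3 (upper panel) and the 46 lower in line 3 (lower panel). In line 4 and in evolved 4 over diploid the members of each direction were called mostly with the sign of line 3, and in line 7 the 95 members were called mostly lower.

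No member was called over the 6 lines as a group. Tested on the means of lines 2, 4, 5, 6, 7 and 8 with limma, 0 of 141 members were called, against 0.0159% of all rows (1 of 6289). Of the members, 43 had an unadjusted p under 0.05, but all rows were not counted at this limit, so an excess cannot be judged. Single choices moved the count of members called, which was 9 without line 8, 17 after quantile normalization and 29 when single arrays entered with line as a random effect. Calls over all rows were not counted under these choices, so an excess of members cannot be judged there either. The medians of the members over the 6 lines were 0.09 for those higher and −0.25 for those lower in line 3, against 0.01 for all rows. The lines differed from each other. The moderated F test of limma called 127 of 136 members as different among the 6 lines, against 81.6% of all rows. Of the members, 96 were called in 3 or more of the 6 lines, and 64 were called higher in at least 1 line and lower in at least 1 other. The shares of all rows for these counts were not computed, so they are not a trait of the members. In single lines 22.3% (line 8) to 66.7% (line 4) of all rows were called.

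Some members were called with 1 sign in most of these lines, 23 of them in 4 lines, 12 in 5 and 2 in 6. The shares of all rows for these counts were not computed either. Only some of those called in 5 or 6 lines are given here. MTR4, the RNA helicase that feeds substrates to the nuclear exosome, and row 5720 were lower in all 6 lines. AMD2, a putative amidase, was higher in 5 of the 6, with 0.35 in line 2, and with 0.71, 0.84, 0.73 and 0.65 in lines 5, 6, 7 and 8, and stood at −0.11 in line 4 (adjusted p = 0.186). SDH5, which attaches the flavin cofactor to succinate dehydrogenase, was higher in 5, at 0.42, 0.46, 0.31, 0.24 and 0.25 in lines 2, 4, 5, 6 and 7, and stood at −0.07 in line 8 (adjusted p = 0.64). Row 2073 was higher in 5 lines as well. CWP1 was lower in 5 and higher in line 4.

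**Figure D3:**
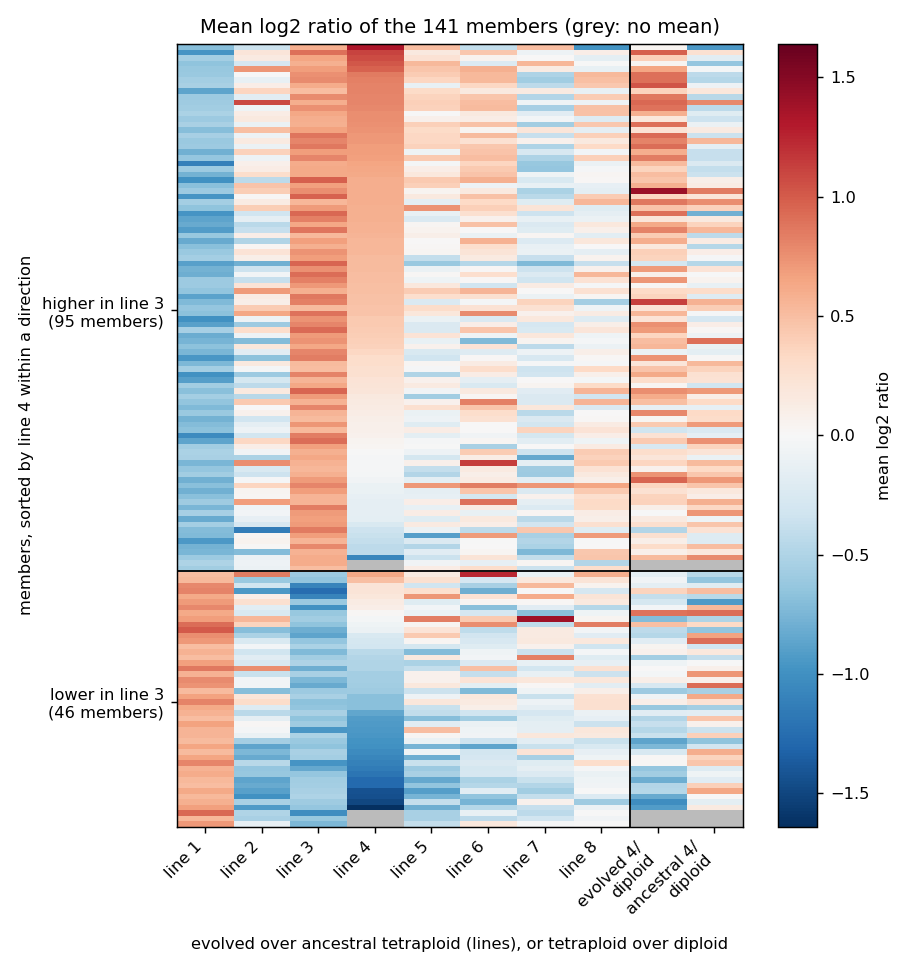
Mean log2 ratio of the 141 members (rows, sorted by line 4 within each direction) in 8 lines of evolved over ancestral cells and in 2 comparisons of a tetraploid with the diploid (columns), red for higher and blue for lower, grey where fewer than 2 arrays gave a value. Line 4 and evolved 4 over diploid carry the colours of line 3 in most members, and line 7 is blue in most members of the upper block.

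The diploid comparisons set evolved 4 and ancestral 4 against a common reference. In evolved 4 over diploid, 100 of 136 members were called, against 51.5% of all rows. Of 93 members higher in line 3, 71 were higher in evolved 4 than in the diploid and 3 were lower, against 26.9% and 24.6% of all rows, with a median of 0.41. Of 43 members lower in line 3, 23 were lower and 3 higher, with a median of −0.29. In ancestral 4 over diploid, 89 of 136 members were called, against 65.3% of all rows. The members higher in line 3 were higher in 34 and lower in 21, against 29.7% and 35.6% of all rows, and those lower in line 3 were higher in 17 and lower in 17. Medians there were 0.11 and 0.07. The methods' t-test, for which all rows were not counted, called 19 members in evolved 4 over diploid and 8 in ancestral 4 over diploid. The rule had left out rows of at least 1 in size in ancestral 4 over diploid. The contrast of evolved 4 over diploid minus ancestral 4 over diploid called 82 of 136 members, against 57.1% of all rows. It was called above 0 in 48 and called below 0 in 10 of the members higher in line 3, against 31.9% and 25.2% of all rows. Of those lower in line 3, it was called below 0 in 20 and called above 0 in 4. Evolved 4 and ancestral 4 each enter several of these comparisons, and the diploid enters both, so line 4 and the diploid comparisons are not independent of each other.

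AMS1, the vacuolar α-mannosidase, was the highest called member of evolved 4 over diploid, at 1.38, 1.31 and 1.52, against 0.99, 0.56 and 1.02 in ancestral 4 over diploid (difference 0.55, limma adjusted p = 0.00209). TAT1, an amino acid permease, was the lowest, at −0.99, −1.09 and −0.98, against −0.24, −0.07 and −0.15 in ancestral 4 over diploid (difference −0.86, adjusted p = 1.31e-08). Row 1216 was the highest called member of ancestral 4 over diploid and stood at −0.25, −0.38 and 0.08 in evolved 4 over diploid and at 1.03, 0.44 and 1.27 in ancestral 4 over diploid. The lowest was YCL041C, with 0.10, −0.02 and 0.06 in evolved 4 over diploid and −0.78, −1.25 and −0.77 in ancestral 4 over diploid. In AMS1 and TAT1 the arrays of the 2 comparisons did not overlap.

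Among the named members higher in line 3 were 12 genes of the cell wall. This grouping was made after the values were seen, from no fixed list, and has no test, and wall genes were also members in the other direction. TOS6, a cell wall protein, had 0.77, 0.73 and 0.35 in line 1 and −0.66, −0.42 and −0.50 in line 3, and the spore wall gene CRR1 stood at −0.66 in line 3. The group of 12 comprised wall mannoproteins and other wall proteins (CWP1, PIR1, HSP150, PST1, TIR1, NCW1), enzymes that remodel or anchor wall polymers (BGL2, a glucanase, CRH1, a chitin transglycosylase, and DFG5), the first enzyme and a later enzyme of the route to the chitin precursor (GFA1 and PCM1), and PUN1, a membrane protein of wall integrity. In line 1 they lay between −0.99 and −0.56 and in line 3 between 0.54 and 0.96. In line 4, 7 of the 12 were higher and 1 lower, with a median of 0.40, beside 63 and 6 of the 93 members of this direction and 35.6% and 31.1% of all rows. In line 7, 0 of the 12 were higher and 8 lower, with a median of −0.41, beside 9 and 42 of the 95 members and 14.6% and 15.1% of all rows. In line 5, 0 were higher and 6 lower, beside 24 and 17 of the 95 members and 19.0% and 21.6% of all rows. Evolved 4 was called above the diploid in 9 and below it in 1 (median 0.32), beside 26.9% and 24.6% of all rows. In ancestral 4 over diploid 4 were called higher and 4 lower (median −0.04), beside 29.7% and 35.6% of all rows.

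The wall genes did not form a uniform block. HSP150 had −0.43, −0.76 and −1.19 in line 1 and 0.72, 1.07 and 0.27 in line 3, and 0.81, 0.77 and 0.47 in line 4 (adjusted p = 4.23e-04). Its values against the diploid were 0.69, 0.63 and 0.44 for evolved 4 and −0.23, −0.33 and −0.58 for ancestral 4, with a difference of 0.97 (adjusted p = 5.96e-04), and the arrays did not overlap. PIR1, which like HSP150 is bound to the glucan of the wall, had −0.68 in line 1, 0.64 in line 3 and 0.38 in line 4 (adjusted p = 0.00295), and a difference of 0.66 against the diploid (adjusted p = 6.54e-04). CWP1 was higher in line 4, at 0.57, 0.62 and 0.38 (adjusted p = 7.13e-08), and lower in line 2 at −0.79, in line 5 at −0.61, in line 6 at −0.46, in line 7 at −0.73 and in line 8 at −0.38. Its difference of the diploid comparisons was 0.17 (adjusted p = 0.109). DFG5 was lower in line 4 at −0.43 (adjusted p = 6.90e-06), and PUN1 was highest in line 6, at 1.13, against 0.57 in line 3. PST1, induced by wall stress, had 0.74, 0.49 and 0.52 in line 4, and its other 5 lines lay between −0.24 and 0.08.

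**Figure D4:**
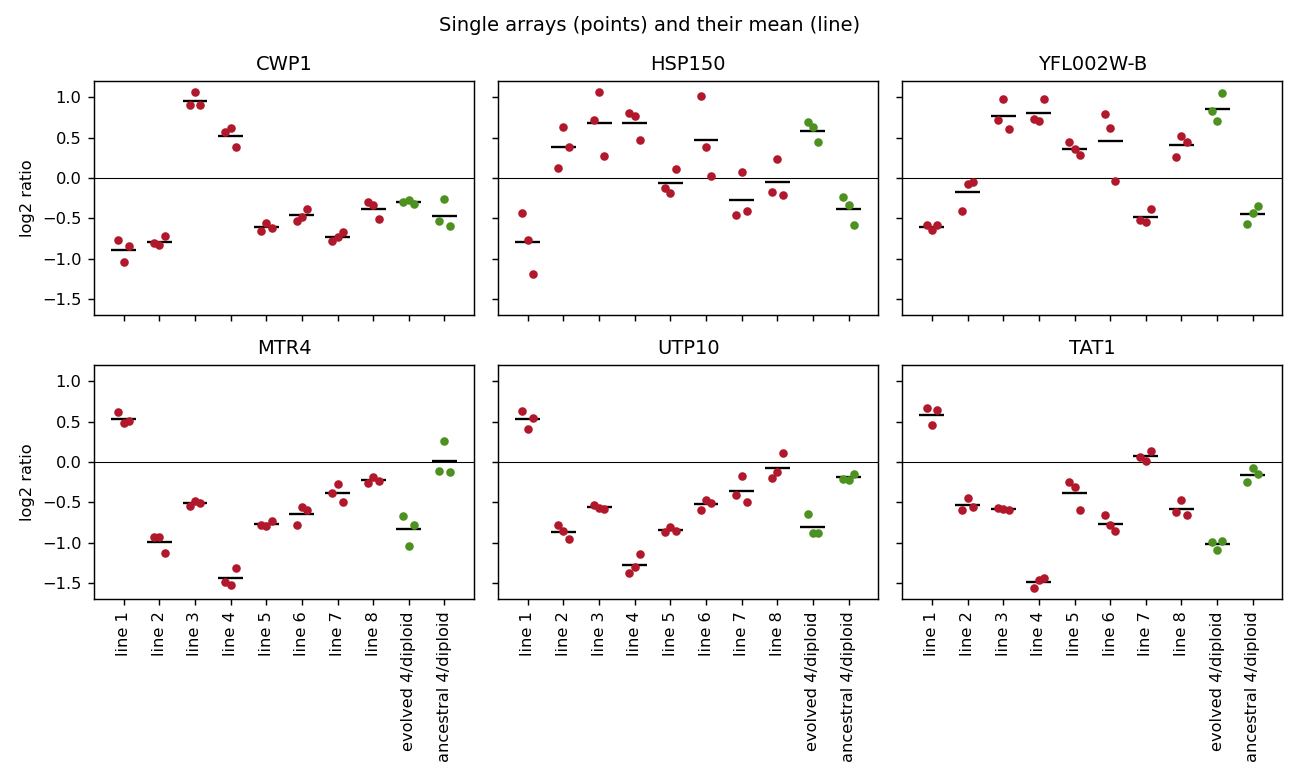
Log2 ratios on single arrays (points) and their means (lines) of 6 members in 8 lines of evolved over ancestral cells (red) and in evolved 4 and ancestral 4 over diploid (green). CWP1, HSP150 and YFL002W-B are below 0 in line 1 and above 0 in line 3, and MTR4, UTP10 and TAT1 are the other way round.

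A second group within the members higher in line 3 was set by near-identical values rather than by role. YFL002W-B and YDR034C-C, reading frames of Ty retrotransposons, correlated at 0.97 over the 30 arrays, and 6 further members correlated with YFL002W-B at 0.93 or more. The copies of a Ty element are close to identical in sequence, so probes of this kind can read the same RNA, and these 8 rows are not 8 independent genes. YFL002W-B had 0.73, 0.70 and 0.98 in line 4, −0.52, −0.54 and −0.38 in line 7 and 0.26, 0.52 and 0.45 in line 8 (adjusted p = 2.20e-07, 0.0011 and 0.00555). The 8 rows lay between 0.67 and 0.85 in line 4 and between 0.33 and 0.53 in line 8, but between −0.57 and −0.38 in line 7 and between −0.18 and −0.01 in line 2. Against the diploid they lay between 0.83 and 0.93 in evolved 4 and between −0.46 and −0.10 in ancestral 4. For YFL002W-B the single arrays were 0.83, 0.70 and 1.05 in evolved 4 over diploid and −0.57, −0.43 and −0.34 in ancestral 4 over diploid, with a difference of 1.31 (adjusted p = 7.16e-08).

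Other named members higher in line 3 were scattered over many roles. They included 3 genes of the pheromone response, AFR1, FAR1 and ASG7, the last an a-specific gene, which lay between −0.88 and −0.68 in line 1 and between 0.56 and 0.86 in line 3. ASG7 was lower in lines 2 and 6, at −0.71 and −0.73, and against the diploid it stood at 0.51 in evolved 4 and 0.90 in ancestral 4 (difference −0.39, adjusted p = 0.0159). MCH5, a riboflavin transporter, was lower in line 4 at −1.07 (adjusted p = 2.85e-10) and higher in line 8 at 0.45 (adjusted p = 0.00117). CHA1, which broke the sign of line 3 in line 4 as well, at −0.36, was higher in line 6 at 0.70 and in line 8 at 0.69. THI4, of thiamine synthesis, was higher in 3 lines, at 0.51 in line 4, 0.28 in line 6 and 0.55 in line 8.

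The members lower in line 3 and higher in line 1 held 7 genes of ribosome assembly and stable RNA, again grouped after the values were seen. They were MTR4, then UTP10 and UTP22, which belong to the complex that processes the small subunit's RNA, and further RRP12, which exports ribosomal subunits, IPI1 of the large subunit's assembly, RPO31, the largest subunit of RNA polymerase III, and DUS1. Their range was 0.50 to 0.66 in line 1 and −0.66 to −0.51 in line 3. The 6 with a mean in line 4 were all lower there, between −1.44 and −0.85, beside 31.1% of all rows. UTP22 had a value on only 1 array of line 4, at 0.49, and so no mean or test there. In line 2, 5 of the 7 were lower, in line 5, 6, in line 6, 6, in line 7, 5 and in line 8, 1, beside 23.9%, 21.6%, 20.8%, 15.1% and 11.1% of all rows, and 0 were higher in these 5 lines.

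MTR4 had 0.62, 0.48 and 0.51 in line 1, −0.54, −0.48 and −0.51 in line 3 and −1.49, −1.52 and −1.32 in line 4 (adjusted p = 9.77e-15). In the other lines its means were −0.99 ± 0.11 (SD, n = 3) in line 2, −0.77, −0.64 and −0.39 in lines 5, 6 and 7, and −0.22 in line 8, where its adjusted p was highest at 0.0244. Against the diploid it stood at −0.66, −1.04 and −0.78 in evolved 4 and at −0.11, 0.26 and −0.13 in ancestral 4 (difference −0.83, adjusted p = 1.93e-07), with no overlap. UTP10 was also lowest in line 4, with −1.27 in line 4, −0.86 in line 2, −0.84 in line 5 and −0.07 in line 8 (adjusted p = 0.507). RPO31 did not pass the test of the difference, with −0.20, −0.17 and −0.20 for evolved 4 and −0.35, 0.04 and −0.20 for ancestral 4, which overlapped (difference −0.02, adjusted p = 0.852). IPI1 was lower in line 4, at −0.95, −0.91 and −0.93 (adjusted p = 2.28e-05), and not called in the other 5. Its mean of −0.36 in line 8 was set by 1 array, the 3 arrays being 0.14, −1.42 and 0.21.

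Most rows of the ribosome biogenesis list were not members. Of 45 rows named as ribosome biogenesis factors in a list of such genes, 3 were members (UTP10, UTP22, RRP12), beside 141 of all 6377 rows. The 45 had a median of 0.23 in line 1 and −0.28 in line 3. This list was lower in most other lines. Limma called 39 of 45 lower and 1 higher in line 2, 39 of 43 lower and 1 higher in line 4, 34 of 45 lower and 1 higher in line 5, 33 of 45 lower and 2 higher in line 6, 25 of 45 lower and 1 higher in line 7, and 6 of 45 lower and 1 higher in line 8. Medians of the list in lines 2, 4, 5, 6, 7 and 8 were −0.66, −1.0, −0.58, −0.50, −0.25 and −0.05. Against the diploid, 36 of 43 were lower and 1 higher in evolved 4, and 4 were lower and 18 higher in ancestral 4. The 106 rows named as cytosolic ribosomal proteins held 0 members, with medians of 0.07 in line 1 and −0.05 in line 3. Chaperones held 1 member of 16 (HSP150, a wall protein despite its name) and oxidative phosphorylation 1 of 34 (SDH5). Lists of stress and reserve carbohydrate genes (9 rows), glycolysis (9), amino acid biosynthesis (40), phosphate (16), the proteasome (19) and histones (5) held 0. At the share of members among all rows, lists this short would hold few or none, so these counts of 0 say little.

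Transporters were members in both directions. Lower in line 3 were TAT1, OPT1, an oligopeptide transporter, MEP2, an ammonium permease, TNA1, a nicotinic acid permease, ATO3 and HXT13, whereas MCH5, AGP3, an amino acid transporter, and SMF1, a manganese transporter, were higher in line 3, at 0.61, 0.56 and 0.52. TAT1 had 0.67, 0.46 and 0.64 in line 1, −0.57, −0.58 and −0.59 in line 3 and −1.56, −1.46 and −1.44 in line 4 (adjusted p = 5.81e-16). It was also lower in line 2 at −0.54, line 5 at −0.38, line 6 at −0.77 and line 8 at −0.58, and stood at 0.07 in line 7 (adjusted p = 0.417). MEP2 was lower in line 4 at −0.85, −0.88 and −1.08 (adjusted p = 8.75e-12) and higher in line 5 at 0.65, 0.49 and 0.37 (adjusted p = 3.47e-06). Of the 6 transporters lower in line 3, ATO3 lay farthest below 0 in ancestral 4 over diploid, with −0.33, −0.29 and −0.27 in evolved 4 and −0.93, −0.81 and −1.06 in ancestral 4 (difference 0.64, adjusted p = 2.30e-07).

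**Figure D5:**
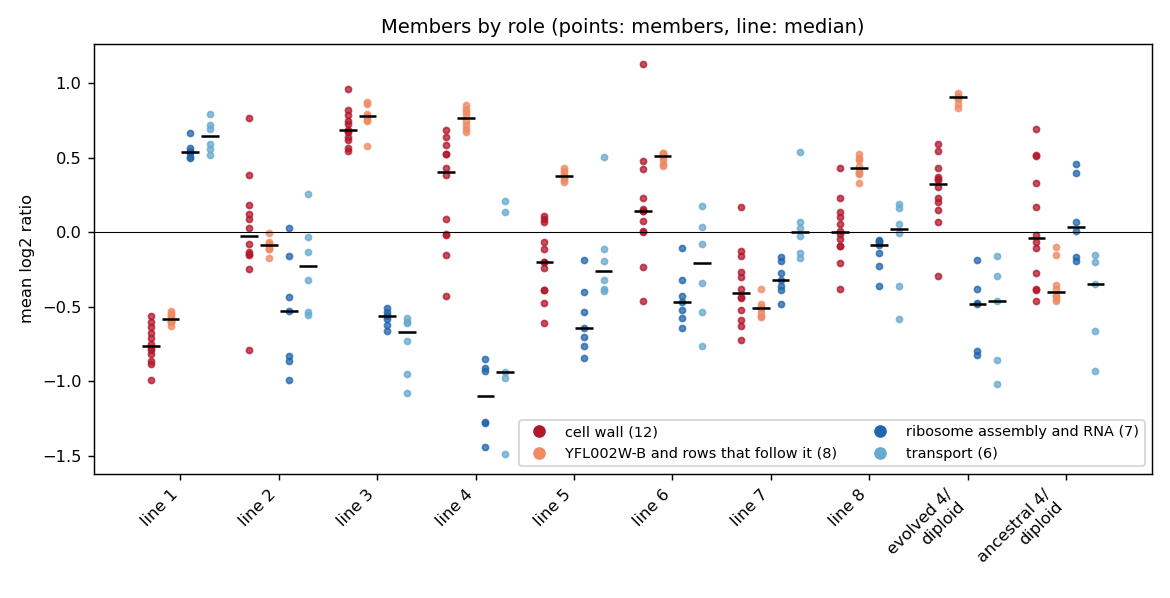
Mean log2 ratio of members by role (points, with the group median as a line; red: 12 wall genes higher in line 3, orange: YFL002W-B and the rows that follow it, dark blue: 7 genes of ribosome assembly and RNA, light blue: 6 transport genes lower in line 3) in 8 lines of evolved over ancestral cells and in evolved 4 and ancestral 4 over diploid. Wall genes and the rows that follow YFL002W-B are below 0 in line 1 and mostly below 0 in line 7, whereas genes of ribosome assembly and RNA are above 0 in line 1 and lowest in line 4.

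Some members of this direction departed from line 3 in the other lines. ADH5 was higher in 4 of the 6 lines, with 0.54 in line 2, 0.84 in line 5, 0.43 in line 6 and 1.39 in line 7. BNA5 was higher in 4, with 0.84 in line 2, 0.64 in line 4, 1.23 in line 6 and 0.60 in line 8. CRR1 was higher in lines 2, 6 and 8 and lower in line 7 at −0.41 (adjusted p = 3.81e-04). POL1, the catalytic subunit of DNA polymerase α, kept to line 3 in 4 lines, at −0.27 in line 2, −0.50 in line 4, −0.52 in line 5 and −0.24 in line 6, although its difference of the diploid comparisons was −0.06 (adjusted p = 0.577). Named members with an annotated chromosome lay on many chromosomes, in uneven shares. They were 10 of 238 named rows on chromosome X, 6 of 155 on XI, 12 of 353 on IV and 12 of 407 on VII. Shares were lower on XII (4 of 397), VIII (3 of 220) and XIV (5 of 335), beside 141 members among all 6377 rows.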

How the data were processed

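The deposited table holds log2 ratios that the authors computed in GeneSpring from spotted 2-colour oligonucleotide arrays. Low intensities were left out and each array was LOWESS-normalized by the authors. The dyes had the same orientation on all 30 arrays, so a dye effect particular to a gene stays in the ratio. Cells at the deposited floor of −6.6439 (84 cells) were set to missing, in addition to 3053 empty cells, and a group mean needed at least 2 of 3 arrays. No read depth applies to arrays, and 3 arrays per group limit the precision. Limma (version 3.58.1, R version 4.3.3) was fitted to all 30 arrays with 10 group means, and Benjamini-Hochberg adjustment ran over all rows tested. The contrast of the diploid comparisons was evolved 4 over diploid minus ancestral 4 over diploid. The 6 other lines were tested on their means, and differences among them by a moderated F test. Scripts were tested on simulated data.

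The members and lists were chosen with earlier results of these data known. Genes named in the text were those with the largest smaller size in lines 1 and 3, and some of those called with 1 sign in most lines. The highest and lowest called member of each comparison and those beside the limit were also named. The role groups and the other genes named were added after the values were seen. Alternatives covered scaling, missing values, the fit, the test, a minimum size, the size limit of the rule and leaving out a replicate number or a line. The probe-sharing rows and the sign of line 1 were alternatives chosen after seeing the data.

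The identifiers listed beside the values were not borne out. Sorted as names on the reverse strand, then mitochondrial and forward-strand names, then the rest, they ran parallel to the values with an offset that changed slowly. The offset was fixed at 338 rows whose line 4 means matched named genes of the study's supplementary tables within 5e-05, and rows between 2 fixed points of equal offset (270 of 337 segments) were placed. This named 338 rows by match and 3584 by place, and left 2455 without a name. Several orders were tried, and the search window was widened after the members had been seen. Copy number changes of single lines gave uneven support to the placement. The 313 rows placed on chromosome II, gained in evolved 7, had a median of 0.28 in line 7, against −0.03 for 3273 other placed rows, but the 67 rows placed in the stretch of chromosome VII from YGR039W to YGR119C, lost in evolved 2, had a median of only −0.075 in line 2, against −0.012 for 3533 others. Shifts that cancel within a segment would not be visible, and rows beside identifiers with a suffix may be off by 1 position. Annotation came from the RefSeq table of assembly R64, for names only.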

Additional observations from a re-analysis of the deposited data

Results flagged for a closer look

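CWP1 in line 4 stood apart from the other 5 lines outside lines 1 and 3. Its mean was 0.52 in line 4 and between −0.79 and −0.38 in the others, a gap of 0.688 of the whole range, above the Dixon limit for 6 values. This was examined in 36 sets of 6 line values, and chance flags about 1 in 20.

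The members differed among the 6 lines in 127 of 136 cases by limma's moderated F test, against 81.6% of all rows, and in 82 of 136 cases between evolved 4 over diploid and ancestral 4 over diploid, against 57.1% of all rows. Both tests rest on technical triplicates of 1 clone per line.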

How the results depend on the processing

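Of 226 values under alternatives, 177 stayed within the limit set for them, 49 moved and 0 reversed. Quantile normalization gave 145 members higher and 129 lower in line 3 (133 of these 274 were among the 141), called 17 members over the 6 lines, and gave medians of 0.812 in line 3, 0.319 in line 4, −0.140 in line 7 and 0.346 in evolved 4 over diploid. Centring gave a median of 0.107 in ancestral 4 over diploid. A size limit of 0.4 gave 192 and 122 members, with medians of −0.552, 0.140, 0.560 and −0.023 in lines 1, 2, 3 and 7 and 0.036 in ancestral 4 over diploid. A limit of 0.6 gave 47 and 21 members, with medians of −0.772, 0.037, 0.790 and 0.013 in lines 1, 2, 3 and 5, 0.432 in evolved 4 over diploid and 0.044 in ancestral 4 over diploid. With the sign of line 1 turned, 0 and 1 rows met the rule. Fitted alone, line 6 called 48 members. The methods' t-test with Benjamini-Hochberg adjustment called 29 members in line 2, 0 in lines 5, 6, 7 and 8, 19 in evolved 4 over diploid and 8 in ancestral 4 over diploid. A size of at least 0.5 as a further condition left 35, 24, 29, 25 and 12 members in lines 2, 5, 6, 7 and 8, 53 in evolved 4 over diploid, 36 in ancestral 4 over diploid and 54 in their difference. Over the 6 lines, 9 members were called without line 8 and 29 with the line as a random block. Calls over all rows were not counted under any of the alternatives in this section. The cause of these changes was not tested.

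Leaving out replicate 1, 2 or 3 of every group left, as members called in lines 2, 4, 5, 6, 7 and 8, 65 to 69, 93 to 99, 51 to 61, 51 to 81, 45 to 60 and 26 to 36, with 86 to 95 in evolved 4 over diploid, 77 to 84 in ancestral 4 over diploid and 65 to 73 in their difference, and 118 to 122 as differing among the 6 lines. Applied again without a replicate, the rule gave 92 members higher each time and 38 to 55 lower in line 3, but not the same rows, since 93, 108 and 118 of the 141 members met it without replicate 1, 2 and 3. With the members kept, their medians in lines 1 to 8, turned to line 3, were −0.696 to −0.625, 0.0658 to 0.0872, 0.654 to 0.674, 0.489 to 0.507, 0.0392 to 0.0858, 0.185 to 0.228, −0.123 to −0.107 and 0.0382 to 0.0922, with 0.382 to 0.416 in evolved 4 over diploid and 0.0683 to 0.0887 in ancestral 4 over diploid.

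Same-numbered arrays of different groups did not deviate together on average (mean correlation 0.00187 over 135 pairs, against −0.00119 over 270 pairs of other numbers). No common pairing by number was therefore seen, although the lowest single same-numbered pair stood at −0.518. With the replicate number as a block, 76, 104, 69, 80, 72 and 52 members were called in lines 2, 4, 5, 6, 7 and 8, 102 in evolved 4 over diploid, 90 in ancestral 4 over diploid, 83 in their difference and 128 among the 6 lines.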
